A study of Homo sapiens with 4 samples.

Results

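The genes described here are the long intergenic noncoding RNA genes that carry a LINC number as their symbol and reach a base mean of at least 20 in the comparison of CFL1 knockout with control cells. The base mean is the mean over all 4 libraries of read counts divided by the library's size factor. The deposited table has 1552 rows with such a symbol, 632 of them with a read in any library and 123 at or above 20, out of 15310 genes of any kind at that level and 59885 rows in all. The members were thus chosen by their base mean in these same libraries, so their levels are a description and carry no test. Just inside the limit lay LINC00628 and LINC00887, with base means of 20.2 and 20.8, and just outside it LINC01186 and LINC00116, with 19.9 and 19.8. All 4 libraries carry the label PANC-1, a line derived from a human ductal adenocarcinoma of the pancreas. The groups were 2 libraries of cells with CFL1 knocked out and 2 libraries of control cells, all of total RNA. CFL1 encodes cofilin-1, which severs actin filaments. The labels name neither the guide nor a clone nor separate cultures, and the spread behind each p-value, that between libraries, may be technical.

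LINC symbols are assigned to long noncoding RNA genes that lie between protein-coding genes and had no described function when they were named. Their transcripts are made by RNA polymerase II and are often spliced and polyadenylated, and as a class they are less abundant and more restricted to particular cell types than messenger RNAs. Some act on a neighbouring gene from the site of their own transcription, some bind proteins or other RNAs elsewhere in the cell, some host small nucleolar RNAs or microRNAs in their introns, and a few have since been found to encode small proteins.

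The table holds no column for single libraries, and reads per library were worked out from the base means, for all 123 members. Recovered reads over all genes ranged from 12353681 to 14641869 a library, and those in the 123 members were 30678 and 25376 in the knockouts, against 28935 and 11357 in control A and control B. Within a group the libraries are called A and B here, which ties neither to a sample number of the labels. CFL1 had 2285 and 2487 normalized counts in the knockouts, against 6276 and 13761 in the controls, and its log2 fold change by the authors' deposited table was -2.07 ± 0.454 (standard error, adjusted p of 0.00168 by DESeq2). Control B stood apart from the other 3. On log2(normalized count + 1), the members gave a Pearson r of 0.97 between the knockouts, 0.94 between either knockout and control A, and 0.31, 0.29 and 0.30 between control B and knockout A, knockout B and control A. These r describe genes, which are no independent replicates, in shared libraries. On that scale no member differed more than 4-fold among knockout A, knockout B and control A, while 49, 51 and 51 members differed that far between control B and knockout A, knockout B and control A. The ductal keratin genes KRT7 and KRT19 parted the same way, with 4000.4 and 3683 for KRT7 in the knockouts against 3551 and 108 in the controls, and 0 and 0 for KRT19 in the knockouts against 1.82 and 2481 in the controls. KRT8 and KRT18 had base means of 14817 and 12890, above the limit for values per library. EPCAM had 7.08 and 16.2 in the knockouts against 6.36 and 42.5 in the controls, so KRT19 and EPCAM were highest in control B and KRT7 lowest there. The 4 acinar markers had no read in any library. The summed level of 5 leukocyte markers was 19.5 and 20.5 in the knockouts against 19.1 and 1255 in the controls, almost all of it CD68 in control B, with PTPRC and CD3E at most 1 read in any library and LYZ at 0. The endothelial markers VWF and CDH5 were at 21.8 or less. The 5 fibroblast markers summed to 764 and 620.1 in the knockouts against 383 and 1854 in the controls, mostly COL1A1, with LUM at 0 throughout. The part of these genes in the results on LINC genes was not tested. Nor was it tested whether control B comes from the same line as the other 3 libraries, or which of the libraries match the line on the label. Each control mean, fold change and p given from the deposited table includes control B.

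The most abundant member was LINC00473, an RNA known to be induced by cyclic AMP through the factor CREB. LINC00473 had 5561 and 5249 normalized counts in the knockouts, against 4909.5 and 0 in control A and control B. The knockouts and control A were alike at LINC00473, and control B had no read. LINC00963 had 2116 and 2055 normalized counts in the knockouts, against 1796 and 759 in control A and control B. LINC01578, now named CHASERR and known to hold down its neighbour CHD2 in cis, had 2041 and 2039 normalized counts in the knockouts, against 1878 and 572 in control A and control B. LINC00963 and CHASERR were highest in the knockouts, a little lower in control A and lowest in control B. These 3 genes were the only members with a base mean of at least 1000, the next 22 lay between 200 and 1000, 56 between 50 and 200 and 42 below 50, and the median was 79.7. Per kilobase of the longest annotated transcript CHASERR was the highest of the 120 members with a length, at 608 normalized counts per kilobase, followed by LINC00958 with 404, against a median of 37.0. Lengths run from 599 to 9678 bases with a median of 2349. LINC00473 has no length in the annotation used.

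**Figure D1:**
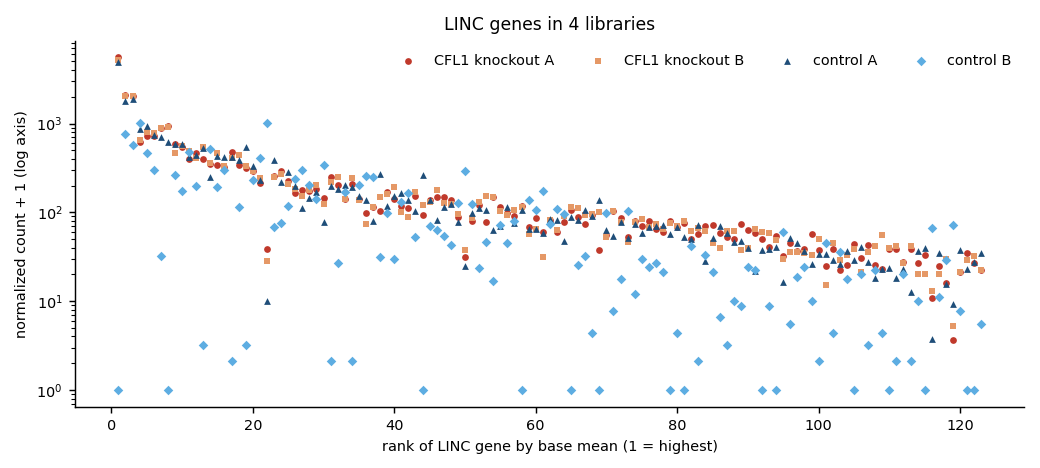
Normalized count + 1 (log axis) of each of the 123 LINC genes, ranked by base mean, in CFL1 knockout A and B and in control A and B. The 2 knockouts and control A run together over nearly the whole range, while the points of control B scatter below and above them, 15 of them at no read.

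The other members among the 10 most abundant were LINC00472, LINC00294, LINC00094, LINC00958, LINC00689, LINC00969 and LINC01123. LINC00294 had 723 and 807 normalized counts in the knockouts, against 941 and 471 in control A and control B. LINC00969, now MIR570HG as the host of a microRNA, had 588 and 459 normalized counts in the knockouts, against 583 and 259 in control A and control B. LINC01123 had 543 and 552 normalized counts in the knockouts, against 591 and 172 in control A and control B. At these 3 genes both knockouts lay between the controls or beside control A, and control B was lowest.

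At 28 members (22.8%) all 4 libraries lay within 2-fold on log2(normalized count + 1), against 46.8% of all genes at that base mean. LINC00641 had 289.5 and 290.1 normalized counts in the knockouts, against 334 and 232 in control A and control B. LINC00997 had 81.5 and 82.0 normalized counts in the knockouts, against 82.7 and 72.6 in control A and control B. LINC01137, now LITATS1, an RNA reported to act on TGF-beta signalling in epithelial cells, had 181 and 199.5 normalized counts in the knockouts, against 167 and 141 in control A and control B. In these 3 genes the groups overlapped or lay close together, and control B was the lowest library.

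Promoters are shown for 5 members, LINC00473 and LINC00689 as abundant genes with no read in control B, LINC02001 and LINC00526 as the genes of lowest unadjusted p with the knockouts higher, and LINC00472 as the abundant gene with the knockouts lower. Each runs from 250 bases before to 50 after the start, 5′ to 3′ on the strand of the gene, from RefSeq on GRCh38.p14. Capitals mark matches on either strand to CCAAT, to the GC box GGGCGG, to the cyclic AMP response half-site TGACG and to TATAAA.
LINC00473, chr6:165987990-165988289, minus strand: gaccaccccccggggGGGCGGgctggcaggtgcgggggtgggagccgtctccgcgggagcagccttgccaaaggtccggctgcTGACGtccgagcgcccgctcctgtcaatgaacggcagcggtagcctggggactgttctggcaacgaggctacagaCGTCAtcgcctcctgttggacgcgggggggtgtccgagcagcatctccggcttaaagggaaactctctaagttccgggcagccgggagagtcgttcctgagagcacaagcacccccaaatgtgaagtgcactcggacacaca
LINC00689, chr7:159008104-159008403, plus strand: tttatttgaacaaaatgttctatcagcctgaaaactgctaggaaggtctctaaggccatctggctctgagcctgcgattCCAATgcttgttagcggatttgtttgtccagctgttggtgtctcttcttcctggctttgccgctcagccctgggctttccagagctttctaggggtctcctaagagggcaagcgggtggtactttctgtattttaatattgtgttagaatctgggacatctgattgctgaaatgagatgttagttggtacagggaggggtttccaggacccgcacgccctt
LINC02001, chr17:35567864-35568163, plus strand: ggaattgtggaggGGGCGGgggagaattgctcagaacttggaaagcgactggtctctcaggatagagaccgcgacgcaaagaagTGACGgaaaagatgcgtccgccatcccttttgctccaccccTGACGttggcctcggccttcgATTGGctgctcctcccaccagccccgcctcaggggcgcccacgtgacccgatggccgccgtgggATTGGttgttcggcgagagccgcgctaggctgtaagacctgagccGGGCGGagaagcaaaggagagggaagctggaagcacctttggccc
LINC00526, chr18:5237980-5238279, minus strand: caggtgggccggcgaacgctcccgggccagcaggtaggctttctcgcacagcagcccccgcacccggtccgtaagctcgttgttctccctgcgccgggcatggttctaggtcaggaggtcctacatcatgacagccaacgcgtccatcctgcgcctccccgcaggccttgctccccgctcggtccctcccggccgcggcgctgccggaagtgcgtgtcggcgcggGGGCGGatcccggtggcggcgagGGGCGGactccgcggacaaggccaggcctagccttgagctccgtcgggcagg
LINC00472, chr6:71420696-71420995, minus strand: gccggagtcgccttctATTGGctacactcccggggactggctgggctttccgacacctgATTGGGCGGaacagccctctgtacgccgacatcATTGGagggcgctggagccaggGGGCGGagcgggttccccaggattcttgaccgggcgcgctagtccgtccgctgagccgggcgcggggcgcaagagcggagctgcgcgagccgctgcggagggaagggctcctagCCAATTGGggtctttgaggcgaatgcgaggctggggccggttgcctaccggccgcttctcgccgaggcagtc

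LINC00473 holds 2 matches to TGACG, 1 on each strand, and 1 to GGGCGG. LINC00689 holds 1 match to CCAAT and none to the others. LINC02001 holds 2 matches to each motif except TATAAA. LINC00526 holds 2 to GGGCGG. LINC00472 holds 5 to CCAAT and 2 to GGGCGG, of which 1 pair overlaps, as do 2 of its CCAAT matches on opposite strands. TATAAA is in none of the 5 windows. Of 98 members with a promoter in the RefSeq table, 34.7% hold the cyclic AMP half-site, against 25% of 27305 promoters of the same length. CCAAT is in 41.8%, against 35.7%. The GC box is in 49%, against 44.6%, and the TATA motif in 11.2%, against 12%. A match of letters is a description and shows no bound factor. The promoters of 12 members with no read in control B had a median of 6.5 CG dinucleotides (3 to 24), against 16 (0 to 48) in 86 members read there and 14 in all promoters. LINC00473 has 24, the highest of those 12, and LINC00689 has 6.

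None of the 123 members passed the test between CFL1 knockout and control cells. The authors' deposited table gives a DESeq2 adjusted p to 16629 genes, of which 93 (0.559%) were under 0.05, 0.138% higher and 0.421% lower in the knockouts. Of the 123 LINC genes 0 were under 0.05, and the lowest adjusted p was 0.187, that of LINC02001. At an unadjusted p under 0.05 the deposited table holds 9 members, 6 higher and 3 lower in the knockouts, which is 7.32% of them, against 13% of the 15310 genes at that base mean (3.29% higher and 9.71% lower). On the recovered reads limma called 0 members after adjustment, and 4 had an unadjusted p under 0.05, against 1.99% of all 24819 genes. The shares of all genes for limma and voom, here and below, are over genes averaging 1 or more. Many of these lie under the base mean limit of the members, so the shares are not of like genes. Voom also called 0 and had 4, against 1.73%. With knockout A or knockout B left out, limma had 0 members under an unadjusted p of 0.05, against 0.326% and 0.314%. With control B left out it had 20, against 12.9%, and 0 after adjustment. With control A left out it had 90, against 50.3%, and called 60 after adjustment, 53 higher and 7 lower in the knockouts, against 33.5% of all genes. In these fits the library left alone in its group is assumed to vary as the other group does.

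Among the 6 members that were higher at an unadjusted p under 0.05, LINC00526, LINC02001 and LINC01011 had controls within 2-fold of each other. LINC00526 had 57.6 and 63.6 normalized counts in the knockouts, against 20.9 and 21.2 in control A and control B. The knockouts at LINC00526 were more than 2-fold above each control, and the controls were equal to within 1 count. In the authors' deposited table LINC00526 has a log2 fold change of 1.52 ± 0.544 (standard error, adjusted p of 0.196 by DESeq2), and without control B limma gave 1.49. LINC02001, now named SNHG30 as a host gene of small nucleolar RNA, had 149 and 179 normalized counts in the knockouts, against 80.9 and 61.5 in control A and control B. Both knockouts of LINC02001 lay above both controls, and its log2 fold change by the authors' deposited table is 1.20 ± 0.42 (standard error, adjusted p of 0.187 by DESeq2). LINC01011 had 70.0 and 60.4 normalized counts in the knockouts, against 27.3 and 32.4 in control A and control B, with control B the higher of the controls. Its log2 fold change by the authors' deposited table is 1.13 ± 0.52 (standard error, adjusted p of 0.343 by DESeq2). At LINC01003, LINC00910 and LINC00242 the knockouts also lay above both controls. LINC01003, which lies near the histone methyltransferase gene KMT2C, had 148 and 149 normalized counts in the knockouts, against 61.8 and 15.6 in control A and control B, and a log2 fold change by the authors' deposited table of 1.93 ± 0.806 (standard error, adjusted p of 0.277 by DESeq2). LINC00910 had 153 and 170.4 normalized counts in the knockouts, against 102 and 51.4 in control A and control B. LINC00242 had 37.2 and 40.98 normalized counts in the knockouts, against 11.8 and 1.12 in control A and control B. In these 3 genes control B is the lowest library and control A the next. Against control A alone, limma without control B gave log2 differences of 1.25 for LINC01003, 0.66 for LINC00910 and 1.64 for LINC00242. These values are smaller than the 1.93, 1.07 and 2.57 of the authors' deposited table, which include control B and come from another method. Limma with all libraries gave 2.21 for LINC01003 and 2.94 for LINC00242.

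The 3 members that were lower at an unadjusted p under 0.05 were LINC00472, LINC01943 and LINC01012. LINC00472, reported to restrain the growth of breast cancer cells, had 623 and 646 normalized counts in the knockouts, against 876 and 1019 in control A and control B. Its knockouts differed little from each other and lay below both controls, and its log2 fold change by the authors' deposited table is -0.58 ± 0.221 (standard error, adjusted p of 0.232 by DESeq2). LINC01943 had 96.5 and 72.3 normalized counts in the knockouts, against 137 and 258 in control A and control B, with control B well above control A. LINC01012 had 2.66 and 4.31 normalized counts in the knockouts, against 8.18 and 70.4 in control A and control B, so its base mean of 21.4 rests on control B. Without control B limma gave -0.71 for LINC01943 and -1.06 for LINC01012, against -1.23 and -3.50 in the authors' deposited table. With all libraries limma gave -1.16 and -2.54. The other log2 fold changes below 0 with both knockouts below both controls that are largest in the authors' deposited table belong to LINC00893, LINC00205, LINC00888, LINC00265, LINC00680, LINC00894 and LINC00513, from -0.998 (LINC00893) to -0.42 (LINC00513). Of these 7, 0 reached an unadjusted p under 0.05. In limma without control B the same 7 ran from -0.80 (LINC00893) to -0.23 (LINC00265). LINC00888 is now named SNHG33. LINC00893 and LINC00894 are now named EOLA1-DT and EOLA2-DT, divergent transcripts of a pair of related genes, and share sequence. LINC00894 had 139 and 139 normalized counts in the knockouts, against 204 and 169.9 in control A and control B, so its control A was higher than its control B.

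**Figure D2:**
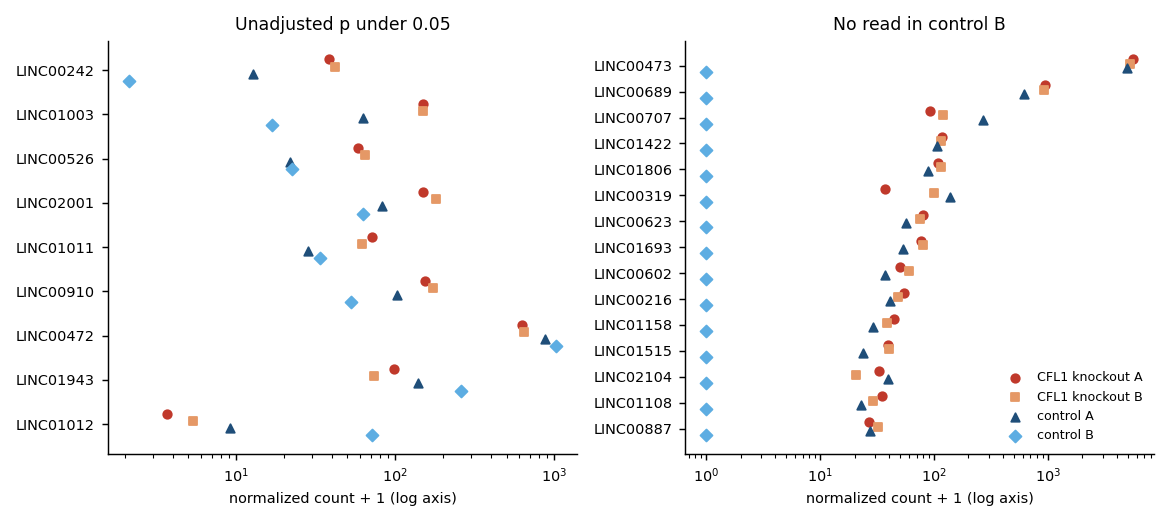
Normalized count + 1 (log axis) by library for the 9 LINC genes at an unadjusted p under 0.05 in the authors' deposited table (left) and the 15 with no read in control B (right), each symbol 1 library. On the left the knockouts lie on 1 side of both controls for all 9 genes, and on the right the knockouts and control A lie nearer to each other than to control B.

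Among members with the knockouts on the same side, LINC00242 with 2.57, LINC01411 with 2.07, LINC01003, LINC02019 and LINC01515 had the highest log2 fold changes by the authors' deposited table, followed by LINC02170, LINC00689, LINC00602, LINC01693 and LINC00526. Without control B limma gave smaller values for these genes, though LINC00526 hardly moved, at 1.49 against 1.52. It gave 1.13 for LINC01411, 0.92 for LINC02019, against 1.76 in the authors' deposited table, and 0.73 for LINC01515, against 1.75. For LINC02170, LINC00689, LINC00602 and LINC01693 it gave 0.66, 0.58, 0.56 and 0.56, against 1.60, 1.58, 1.58 and 1.57 in that table. Limma with all libraries gave larger values than limma without control B for each of these genes other than LINC00526. LINC02170, now named ARLNC1 after its control by the androgen receptor in prostate cells, had 22.1 and 55.0 normalized counts in the knockouts, against 21.8 and 3.35 in control A and control B. The knockouts of ARLNC1 differed from each other by more than 2-fold, and knockout A lay within 1 count of control A. LINC02019 had 102 and 104 normalized counts in the knockouts, against 53.6 and 6.71 in control A and control B. LINC01515 had 38.1 and 38.8 normalized counts in the knockouts, against 22.7 and 0 in control A and control B. Both knockouts lay above both controls at 46 members (37.4%) and below both at 12 (9.76%), against 24.1% and 21.4% of the 15136 genes at that base mean with recovered reads. Together these 58 are 47.2%, against 45.5%, and at the other 65 members the groups overlapped. The shares above and below include control B, which was the lowest library at 70.7% of members, against 43.4% of all genes. The base mean limit favours genes low in control B, and these shares carry no test. The knockouts differed from each other by over 4-fold at 0 members and by over 2-fold at 2, ARLNC1 and LINC00319, against 0.35% and 2.03% of all genes.

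With control B set aside, the knockouts lay close to control A. The mean of the knockouts lay within 2-fold of control A at 111 of 123 members, and the median difference was 0.11 on the log2 scale. The 12 others are 9.76% of the members, against 3.84% of all genes at that base mean, a share not matched for level. Among the 12, LINC01232, LINC01012, LINC00511 and LINC00242 had few counts in control A, where a 2-fold difference rests on few reads. LINC01232 and LINC01012 passed the base mean limit only through control B. The 8 with the knockouts higher, 6.5% against 2.11%, were LINC01232, LINC00511, LINC00242, LINC00526, LINC01003, LINC01011, LINC01411 and LINC02001, and the 4 with the knockouts lower, 3.25% against 1.72%, were LINC00707, LINC00319, LINC00842 and LINC01012. LINC00707 had 91.2 and 119.7 normalized counts in the knockouts, against 265 and 0 in control A and control B, a difference from control A of -1.34 on the log2 scale. In the authors' deposited table its log2 fold change is -0.33, with control B, at no read, averaged in. LINC00842 had 103 and 147 normalized counts in the knockouts, against 272 and 30.2 in control A and control B. LINC00319 had 36.3 and 99.2 normalized counts in the knockouts, against 135 and 0 in control A and control B, and its knockouts differed from each other by more than 2-fold. LINC00707, LINC00842 and LINC00319 were highest in control A, with the knockouts between the controls. LINC00942, with 317 and 332 normalized counts in the knockouts, against 543 and 2.24 in control A and control B, and LINC00174, with 252 and 247 normalized counts in the knockouts, against 388 and 68.2 in control A and control B, followed the same order. Of the 20 members under an unadjusted p of 0.05 in limma without control B, 13 were higher and 7 lower in the knockouts, and 7 were among the 9 of the deposited table. The lowest adjusted p of a member in that fit was 0.351.

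**Figure D3:**
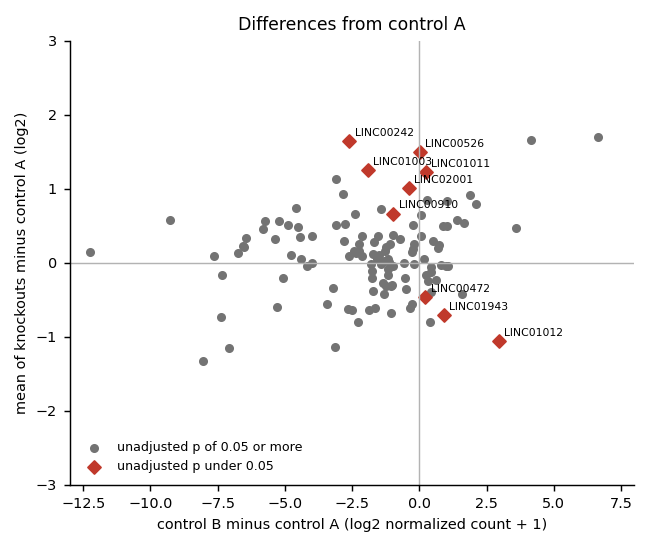
Mean of the knockouts minus control A (vertical axis) against control B minus control A (horizontal axis), both on log2(normalized count + 1), for the 123 LINC genes, with the 9 at an unadjusted p under 0.05 in the authors' deposited table named. The vertical spread stays within 2 log2 units, while the horizontal spread reaches below -12 at LINC00473.

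Control B lacked a read at 15 members (12.2%), against 2.18% of all genes at that base mean, and no member lacked a read in control A or a knockout. At base means from 20 to 200 the shares without a read in control B were 13.3% of 98 LINC genes and 4.98% of all 5260 genes. In bulk samples fewer cells that make an RNA and less of it per cell cannot be told apart. The 15 genes averaged between 27.8 and 5239.5 normalized counts over the other libraries. Set against a floor of 3 reads in control B, the mean of the other 3 libraries at LINC00473 was at least 1563-fold higher. LINC00689 had 938 and 912 normalized counts in the knockouts, against 618 and 0 in control A and control B, a mean of the other 3 at least 245-fold higher than that floor. LINC01422 had 116 and 114 normalized counts in the knockouts, against 105 and 0 in control A and control B, and LINC01806 had 106 and 113 normalized counts in the knockouts, against 87.2 and 0 in control A and control B. By the mean of the other 3, LINC00707 was followed by LINC01422, LINC01806, LINC00319, LINC00623 and LINC01693, with means of 112, 102, 90.3, 69.6 and 68.6. A further 10 members were read in control B but lay more than 16-fold below the mean of the other 3 on log2(normalized count + 1). LINC01021, known as PURPL, an RNA that p53 induces and that restrains p53, had 481 and 411 normalized counts in the knockouts, against 416 and 1.12 in control A and control B. LINC01537 had 401 and 548 normalized counts in the knockouts, against 529 and 2.24 in control A and control B. LINC00958, whose RNA is reported to carry METTL3-dependent N6-methyladenosine in liver cancer cells, had 899 and 883 normalized counts in the knockouts, against 702 and 31.3 in control A and control B. At PURPL, LINC01537 and LINC00958 the knockouts and control A lay within 2-fold of each other and control B stood alone.

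The base mean limit does not treat the controls' differences evenly, since 3 like libraries outweigh control B in the mean. It kept 48 members under 20 in control B, and 3 whose mean over the other 3 libraries was under 20. LINC00116, just outside the limit, had 4.43 and 15.1 normalized counts in the knockouts, against 3.64 and 55.9 in control A and control B. How many members were low and how many high in control B therefore depends on the limit. Control B was more than 4-fold above each other library at 4 members, LINC00511, LINC00941, LINC01232 and LINC01012. LINC00511, described as raised in several carcinomas, had 37.2 and 27.0 normalized counts in the knockouts, against 9.09 and 1008 in control A and control B. In the authors' deposited table its log2 fold change is -3.99 ± 2.13 (standard error, adjusted p of 0.419 by DESeq2), although both knockouts lay above control A. LINC00941 had 30.1 and 36.7 normalized counts in the knockouts, against 23.6 and 294 in control A and control B. LINC01232 had 9.74 and 11.9 normalized counts in the knockouts, against 2.73 and 64.8 in control A and control B. The 3 members that passed the limit through control B were LINC01012, LINC01232 and LINC02086.

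A larger share of LINC genes than of other classes of noncoding gene at the same base mean limit was low in control B. They were more than 4-fold lower in control B than in control A at 46 members (37.4%) and more than 4-fold higher at 5 (4.07%), against 11.6% and 7.84% of all genes. Among 288 antisense genes the shares were 18.1% and 7.29%, among 19 small nucleolar RNA host genes 10.5% and 10.5%, and among 19 microRNA host genes 15.8% and 21.1%. At base means from 20 to 200, which hold 98 of the members, the shares were 39.8% and 4.08% for LINC genes and 19.9% and 11.7% for all 5260 genes. In all, 51 members differed over 4-fold between the controls, against 19.5% of all genes. Control B was the lowest of the 4 libraries at 87 members (70.7%), against 43.4% of all genes, and the highest at 27 (22%), against 43.9%. Leaving out LINC00473, the members summed to 21603 and 22117 normalized counts in the knockouts, against 21388 and 12694 in control A and control B. These shares compare single libraries after the base mean limit, which favours genes low in control B over genes high there, and carry no test. The median log2 fold change by the authors' deposited table was 0.47 for LINC genes, 0.26 for antisense genes, 0.54 for small nucleolar RNA host genes, 0.10 for microRNA host genes and -0.03 for all genes. The median difference of LINC genes was 0.11 from control A and 1.39 from control B. Of the 19 small nucleolar RNA host genes 1 passed the test upward and 0 downward, and of the antisense and microRNA host genes 0 passed in either direction.

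**Figure D4:**
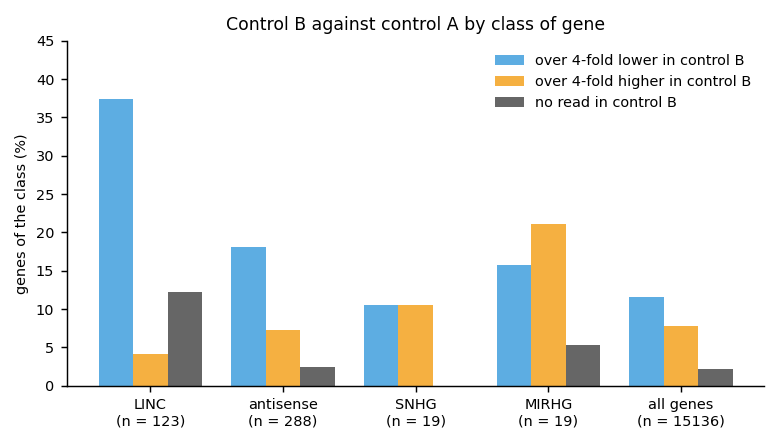
Share of genes (%) more than 4-fold lower in control B than in control A, more than 4-fold higher, and with no read in control B, by class of gene, for genes at a base mean of 20 or more. LINC genes reach 37.4%, 4.07% and 12.2%, against 11.6%, 7.84% and 2.18% of all genes.

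Not all members are noncoding or intergenic by later annotation. All 123 matched a RefSeq gene, 101 by symbol and 22 by synonym, and RefSeq lists 5 as protein coding. These are LINC00094 (BRD3OS), LINC00998 (SMIM30), LINC00493 (SMIM26), LINC01125 (C2orf92) and LINC00176 (C20orf204). BRD3OS had 729 and 774 normalized counts in the knockouts, against 738 and 296 in control A and control B. SMIM30, which encodes a small membrane protein, had 336 and 439 normalized counts in the knockouts, against 391 and 113 in control A and control B, and SMIM26, which encodes a small mitochondrial protein, had 179 and 153 normalized counts in the knockouts, against 111 and 297 in control A and control B. BRD3OS and SMIM30 were lowest in control B and SMIM26 was highest there. C2orf92 had 57.6 and 38.8 normalized counts in the knockouts, against 70.0 and 5.59 in control A and control B. C20orf204 had 44.3 and 34.5 normalized counts in the knockouts, against 49.99 and 4.47 in control A and control B, and both were highest in control A and lowest in control B. In GENCODE 29, 89 members are typed as lincRNA, 15 as processed transcript, 6 as antisense, 5 as protein coding, 5 as other types, and 3 are not in that release. On GRCh38, 17 members overlap a protein-coding gene of the table and 45 more lie within 10 kb of the nearest.

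The nearest coding gene of a member shared its low level in control B in some cases and not in others. Among 25 members that were more than 16-fold below the other libraries in control B, 17 had a nearest coding gene at a base mean of 20 or more, and in control B 6 of these neighbours were also more than 4-fold lower while 10 were within 4-fold. Among all 96 members whose neighbour reached that base mean, 19 had a neighbour more than 4-fold lower in control B, and the difference between these shares was not tested. LINC00473 overlaps PDE10A, a cyclic nucleotide phosphodiesterase gene, which had 1092 and 1147 normalized counts in the knockouts, against 1208 and 963 in control A and control B. LINC00602 overlaps PDE10A too, and had 49.6 and 59.3 normalized counts in the knockouts, against 36.4 and 0 in control A and control B. PDE10A was thus level across the libraries while LINC00473 and LINC00602 had no read in control B. CHD2, a chromatin remodeller gene next to CHASERR, had 3103 and 3104 normalized counts in the knockouts, against 3607 and 3567 in control A and control B. By contrast VIPR2, a receptor gene for vasoactive intestinal peptide next to LINC00689, had 701 and 647 normalized counts in the knockouts, against 446 and 1.12 in control A and control B. PDE2A, another phosphodiesterase gene, next to LINC01537, had 963 and 982 normalized counts in the knockouts, against 1086 and 22.4 in control A and control B. POU3F3, a transcription factor gene beside LINC01158 (PANTR1), had 77.9 and 70.1 normalized counts in the knockouts, against 71.8 and 1.12 in control A and control B, and PANTR1 itself 43.4 and 37.7 normalized counts in the knockouts, against 28.2 and 0 in control A and control B. At these 3 loci the LINC gene and its neighbour were both low in control B. WNT7B, a Wnt ligand gene some way from LINC00899, had 335 and 321 normalized counts in the knockouts, against 357 and 2889 in control A and control B, while LINC00899 had 249.7 and 218 normalized counts in the knockouts, against 199 and 1.12 in control A and control B, so that control B was highest for the coding gene and lowest for the LINC gene. Control B minus the mean of the other 3 was compared over these 96 members, and Pearson's r of member with neighbour was 0.27 and Spearman's rho 0.26, and of the knockouts minus control A 0.10 and 0.07. These values describe genes measured in shared libraries and have no test.

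**Figure D5:**
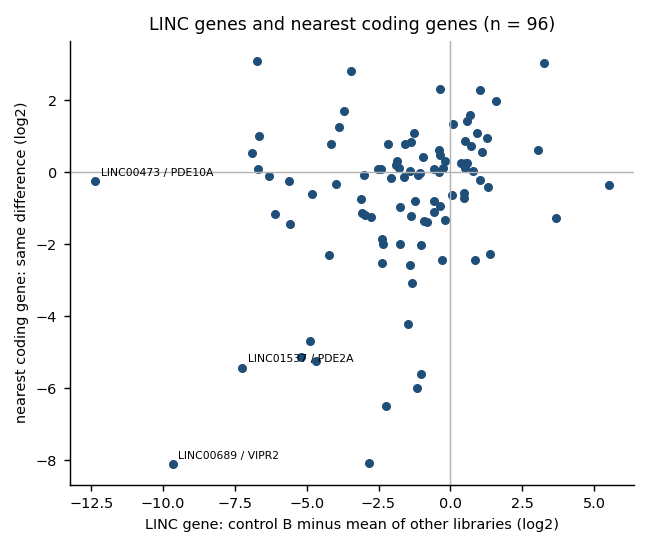
Control B minus the mean of the other libraries (log2 of normalized count + 1) for 96 LINC genes (horizontal axis) and for their nearest coding gene (vertical axis), each point 1 pair. LINC00473 lies far to the left with PDE10A near 0, while LINC00689 with VIPR2 and LINC01537 with PDE2A lie low on both axes.

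Reads of some members may be divided with near-identical genes. Of 120 members with a transcript in GENCODE 29, 57 shared under 5% of their 31-base words, on either strand, with transcripts of other genes, and 18 shared more than 40%. LINC00526 shared 40.3% with LINC00667 (395 and 485 normalized counts in the knockouts, against 423 and 477 in the controls), and LINC01943 shared 49.6% with other genes. LINC00941, among the members highest in control B, shared the most, 98.0%, with 92.2% shared with another gene entry of the same symbol. LINC01123 and LINC01106 shared 95.2% and 92.6%, LINC00319 92.4%, and LINC00893 and LINC00894 49.4% and 27.0%. LINC00689 shared 22.4% with VIPR2 and LINC00602 24.5% with PDE10A, and whether the counting used strand is not given in the sources used here. LINC00472, LINC00242 and LINC01003 shared 6.71%, 4.95% and 0%. Levels of members that share words may be uncertain, and the share of words does not measure by how much.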

How the data were processed

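RNA of 4 libraries was measured. Cutadapt, FastQC, STAR, RSEM and build hg19 are named, without versions, in the submitters' processing notes. The authors deposited a single table of DESeq2 results. The deposited base mean is a signal, counts over size factors averaged across libraries. The deposited fold change and standard error are log2 values, the deposited Wald score is their ratio, and the deposited p-value is unadjusted or adjusted by Benjamini-Hochberg.

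Reads per library were recovered from base means given to 15 digits. Each is a sum of whole reads times 4 steps, and a gene with a lone read gives a step. The whole-number solution whose log2 fold change lay within 0.0002 of the deposited value was kept, with the dispersion implied by the deposited standard error, or the sole solution where there was 1. This gave reads for 30657 of 30662 genes below a base mean of 10000 and for all members, 122 of them with 1 solution. Of base means shifted on purpose, 0 of 200 gave a solution within that tolerance in each range below 3000. Between 3000 and 10000, where LINC00473 and CFL1 lie, 13 of 200 did. A sole solution of a real base mean was kept without the tolerance, and 3549 of 3673 genes from 20 to 100 lay within it. Among the members the largest difference was 4.4e-05. As RSEM estimates counts, the reads are rounded estimates. The 169 genes above 10000 have no values per library.

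Limma 3.58.1 (R 4.3.3, trended prior) used log2(normalized count + 1), which understates changes of low genes, over 24819 genes averaging 1 or more. In a simulation of this comparison over 23162 genes, with no library that stands apart, 95 of 100 2-fold and 100 of 100 4-fold changes were found, beside 16 false calls. The changed genes averaged 50 or more, and every gene had the same low dispersion. As 42 members lie below 50, the simulation does not show what would be found among them. Alternatives were voom, other pseudocounts, limits and thresholds, and leaving out each library. Named genes are the 10 most abundant, the 10 largest fold changes each way where the groups do not overlap, the 8 most abundant with no read in a control, those at the limit and the coding ones. Others were named after their values were seen. Members, lists and alternatives were chosen with earlier results of these data known. Neighbours and promoters came from RefSeq (GRCh38.p14), lengths from GENCODE 29.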

Additional observations from a re-analysis of the deposited data

How the results depend on the processing

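The count of 0 LINC genes called held with no independent filtering, with base means of at least 10 for the adjustment, at a threshold of 0.01, with base mean limits of 10 or 50 for the members, and in limma with a pseudocount of 1 or 0.1, limma over genes averaging 10 or more, and voom. Leaving out each library in turn gave 0 to 60, the 60 coming without control A. The 9 members at an unadjusted p under 0.05 became 3 at 0.01, 14 and 5 with base mean limits of 10 and 50, and 4, 3 and 3 in limma at pseudocounts of 1 and 0.1 and over genes averaging 10 or more, and 4 in voom. Leaving out each library gave 0 to 90. The 58 members whose groups did not overlap became 38 at a limit of 50, and 95 to 121 with each control left out. The 51 members that differed over 4-fold between the controls became 27 at a limit of 50. The cause was not tested, except that a higher limit leaves fewer members. Leaving out a control cannot lower the count of members whose groups do not overlap.

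Of 312 values of the log2 fold change of 39 named members, 47 moved by more than the spread between replicates. The sign changed 8 times without control B, 2 without control A and 12 in the other settings. All changes other than those without control B belonged to LINC00707 and LINC00319, genes with no read in control B. Values that did not count as moved were not all stable. In limma at a pseudocount of 1, LINC00473 went from 1.14 to 6.27 and LINC00707 from -0.33 to 2.69, and neither counted. No paired analysis was possible because the deposited table carries no replicate numbers. Members of low base mean rest on few reads, and a control library with no read cannot show by how much a gene is lower.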
